A study of Homo sapiens with 6 samples.

Results

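The genes described here are the unnamed, spliced, short non-coding genes of a count table from U-2OS cells, a human osteosarcoma line. A gene was taken when its name in the table was only its Ensembl identifier, its exonic length was below its span, and its span was below 10000 bases. 4 ribosomal DNA rows of chromosome 21 that met this rule were left out. The rule gave 13536 of the 35036 genes in the table, and 13536 of its 29116 unnamed ones. It used no measured value. The table held 3 libraries labelled SiCtrl and 3 labelled SiSFPQ, from cells transfected with a control siRNA or with an siRNA against SFPQ. All 6 had actinomycin D, a transcription inhibitor whose dose and duration are not given in the sources used here, so no untreated cells are compared. SFPQ binds RNA and helps build paraspeckles, bodies of the nucleus that form on a long non-coding RNA. SFPQ itself and markers of osteosarcoma cells were not analysed here, so the knockdown and the cell type rest on the labels.

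Genes of this kind are mostly long non-coding RNAs without an assigned symbol. Many are antisense transcripts, which lie across a coding gene on its other strand. Others are divergent transcripts, which start near a coding gene's start and run away from it, as happens at many promoters rich in CpG dinucleotides. Others sit inside introns, where reads from the host gene's unspliced RNA can also fall, or lie apart from any coding gene.

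The genes spanned 209 to 9997 bases, with a median of 2861, and their exons covered 82 to 8444 bases, with a median of 691. Of them, 3511 (25.9%) had an identifier that was already in GENCODE release 29. That release classed 1629 of these as antisense, 1449 as intergenic and 310 as sense intronic, and 2565 had exons in 2 blocks. Set against its coding genes, 2781 genes (20.5%) lay over coding-gene exons, 2565 of them on the opposite strand. A further 2313 (17.1%) lay within introns only, 466 (3.4%) were divergent, with 5′ ends within 1000 bases of a coding gene's 5′ end and no overlap, and 7976 (58.9%) lay apart. Among the other rows of the table these shares were 30.9%, 9.9%, 4.4% and 54.7%.

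Divergent genes share one stretch of promoter sequence with a coding partner, so 5 of those stretches are shown for the divergent genes that the results turn on. They belong to the 3 largest increases and the most abundant increase among divergent genes with such a window, and to a decrease. They were chosen after their values were seen. Each is the 250 bases before the coding partner's RefSeq start (GRCh38.p14), read 5′ to 3′ on the partner's strand. Capitals run from the listed 5′ end of the unnamed gene to the base before the partner's start. The unnamed gene runs leftwards from the first capital, and its partner begins after the last one. At ZBTB26 the bases after the RefSeq start were not found in its GENCODE 29 transcripts, while at the other 4 partners they were.
ENSG00000300428 and IPPK, chr9:92670132-92670381, minus strand: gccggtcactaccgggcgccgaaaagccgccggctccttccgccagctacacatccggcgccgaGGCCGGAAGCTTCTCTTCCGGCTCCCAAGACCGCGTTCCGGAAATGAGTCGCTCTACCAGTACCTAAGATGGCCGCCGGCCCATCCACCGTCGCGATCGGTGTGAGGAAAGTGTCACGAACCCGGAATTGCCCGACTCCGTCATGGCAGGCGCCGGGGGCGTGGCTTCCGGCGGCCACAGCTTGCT
ENSG00000307098 and RBM4B, chr11:66677888-66678137, minus strand: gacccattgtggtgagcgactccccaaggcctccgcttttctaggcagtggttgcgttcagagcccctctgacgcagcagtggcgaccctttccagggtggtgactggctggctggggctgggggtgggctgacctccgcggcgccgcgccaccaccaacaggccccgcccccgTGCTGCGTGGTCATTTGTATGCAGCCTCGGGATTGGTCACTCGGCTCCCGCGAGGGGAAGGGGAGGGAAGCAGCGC
ENSG00000289088 and TPPP, chr5:693353-693602, minus strand: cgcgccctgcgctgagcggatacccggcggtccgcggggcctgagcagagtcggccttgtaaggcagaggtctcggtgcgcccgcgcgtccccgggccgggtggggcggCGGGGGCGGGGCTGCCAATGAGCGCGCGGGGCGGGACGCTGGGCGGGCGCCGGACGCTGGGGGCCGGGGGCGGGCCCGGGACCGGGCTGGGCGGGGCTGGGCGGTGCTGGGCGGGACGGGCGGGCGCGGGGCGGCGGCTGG
ENSG00000309800 and EIF1, chr17:41688635-41688884, plus strand: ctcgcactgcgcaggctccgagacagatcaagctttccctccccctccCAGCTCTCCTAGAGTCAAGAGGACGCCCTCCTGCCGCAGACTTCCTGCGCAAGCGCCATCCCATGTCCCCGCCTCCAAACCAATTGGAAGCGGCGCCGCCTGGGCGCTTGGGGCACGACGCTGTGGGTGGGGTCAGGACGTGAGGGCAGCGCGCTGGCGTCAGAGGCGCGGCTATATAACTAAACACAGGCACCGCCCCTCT
ENSG00000261094 and ZBTB26, chr9:122931513-122931762, minus strand: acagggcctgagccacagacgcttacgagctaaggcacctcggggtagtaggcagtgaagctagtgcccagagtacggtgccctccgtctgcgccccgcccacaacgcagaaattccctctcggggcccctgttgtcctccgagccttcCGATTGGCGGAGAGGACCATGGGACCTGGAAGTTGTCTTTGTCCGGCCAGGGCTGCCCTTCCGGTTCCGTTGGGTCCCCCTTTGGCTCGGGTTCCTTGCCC

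Distances given elsewhere are to the partner's GENCODE 29 start, which differs from the RefSeq start at some of these genes. The capitals hold 186 bases at IPPK, 76 at RBM4B, 141 at TPPP, 202 at EIF1 and 101 at ZBTB26. Windows of 300 bases, which add the first 50 bases of the partner, held the start of 18 of the 40 tested divergent genes, in 19 windows. Searched on both strands, GGGCGG was in 17 of these 19 (89.5%), against 45.0% of all 35116 such RefSeq windows. CCAAT was in 8 of 19 (42.1%) against 34.6%, and CACGTG in 3 of 19 (15.8%) against 7.3%. RGS7 has overlapping windows among the 19, each with GGGCGG and CACGTG, so its gene counts more than once for both motifs. TATAAA was in 0 of 19 against 11.5%, TGACGTCA in 0 against 1.8% and TGANTCA in 0 against 7.7%. The median number of CpG dinucleotides was 31 (range 10 to 51) against 14, and the median GC content 69.3% against 58.7%. These are matches of letters in windows of one length. Windows in which a start lies are by construction those of divergent promoters.

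The count totals of the whole table were 1385532 to 1533974 per SiCtrl library and 1298658 to 1599566 per SiSFPQ library. They cover listed non-coding genes and are not the full sequencing depth. No label says that the 3 libraries of a group were separate cultures, so p-values measure the spread between these samples, which may be technical. Log2 levels of the tested unnamed genes correlated at 0.979 to 0.984 across genes within groups and at 0.935 to 0.937 between groups. The counts do not seem to separate genes that overlap, whichever their strands, although the library kit was stranded. MALAT1 and TALAM1, which lie on opposite strands of one locus, held 72563 and 72552 counts. Of 186 pairings of a tested unnamed gene with a tested row overlapping it on the other strand, 6 agreed within 5% in total counts. A pair in which both rows are unnamed short genes counts from each side, as happens among the 6. Of the counts of the unnamed genes, 86.3% fell on genes over coding exons, and 34.6% on 5 genes.

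Most of the unnamed genes were not detected, or barely, in these poly(A)-selected libraries of cells given actinomycin D. No read was counted on 6400 of them, and 5449 more had too few for a test; the largest total among untested genes was 71 counts over the 6 libraries. The 1687 tested genes (12.5%) carried all but 2.13% of the counts. Together the 13536 genes took 27.3%, 27.4% and 27.3% of the table's counts in SiCtrl and 28.5%, 28.4% and 28.4% in SiSFPQ. The groups did not overlap, and the means were 27.3% ± 0.0158 and 28.4% ± 0.0932 (SD, n = 3 each), a difference of 1.09 percentage points. An exact two-sided permutation test gave p = 0.1, the smallest that 3 against 3 libraries allow. On TMM-scaled CPM (counts scaled by library total and composition) the difference reversed, to -0.134 percentage points, with TMM factors of 0.976 to 0.982 in SiCtrl and 1.02 to 1.03 in SiSFPQ. For genes outside coding exons the shares were 3.76% ± 0.0663 and 3.87% ± 0.0291.

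The first comparison asked which of these genes changed with the SFPQ siRNA in cells given actinomycin D. Of the 1687 tested, 402 were higher (23.8%) and 375 lower (22.2%) in SiSFPQ by edgeR's quasi-likelihood test at a Benjamini-Hochberg adjusted p of 0.05 over all genes tested. Of all 6325 tested genes of the table, 24.5% were higher and 24.0% lower, so the share of unnamed short genes called was near that of the table. Their median log2 fold change was 0.003, against 0.008 for all genes, and the middle of the distribution ran from -0.36 to 0.39 (quartiles). The groups did not overlap in CPM for 895 (53.1%), against 54.0% of all genes. Log2 fold changes ranged from -3.10 to 4.27. Increases of at least 1 on the log2 scale were called for 108 genes (6.40%, against 6.86% of all genes) and decreases of that size for 98 (5.81%, against 5.38%). At the other end, 223 calls were of less than 0.5, 110 higher and 113 lower.

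Calls were more frequent among abundant genes. In the lowest of 4 equal groups by mean CPM, up to 11.7 CPM, 15.9% were higher and 11.8% lower. In the highest group, above 72.2 CPM, 33.9% were higher and 31.8% lower. The median fold change stayed between -0.036 and 0.053 in all 4 groups. Across the tested genes, Spearman's rho of fold change with span was -0.04, with exonic length -0.016 and with mean CPM -0.015; genes are not independent replicates. Of the 1170 tested genes under 5000 bases, 273 were higher and 247 lower, and of the 517 longer ones, 129 and 128. Genes already in GENCODE 29 had 195 higher and 178 lower calls among 769 tested, and those not in it 207 and 197 among 918. The other unnamed genes differed in balance as span grew: at 10 to 100 kb 325 were higher and 375 lower of 1532, and over 100 kb 46 were higher and 105 lower of 301. DESeq2, which tested 7646 genes of the table, called 226 unnamed short genes higher and 206 lower, when 11.2% and 11.8% of its genes were called in those directions. On the genes that edgeR's filter kept it called 255 and 256, with 16.0% and 17.0% of all genes.

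**Figure D1:**
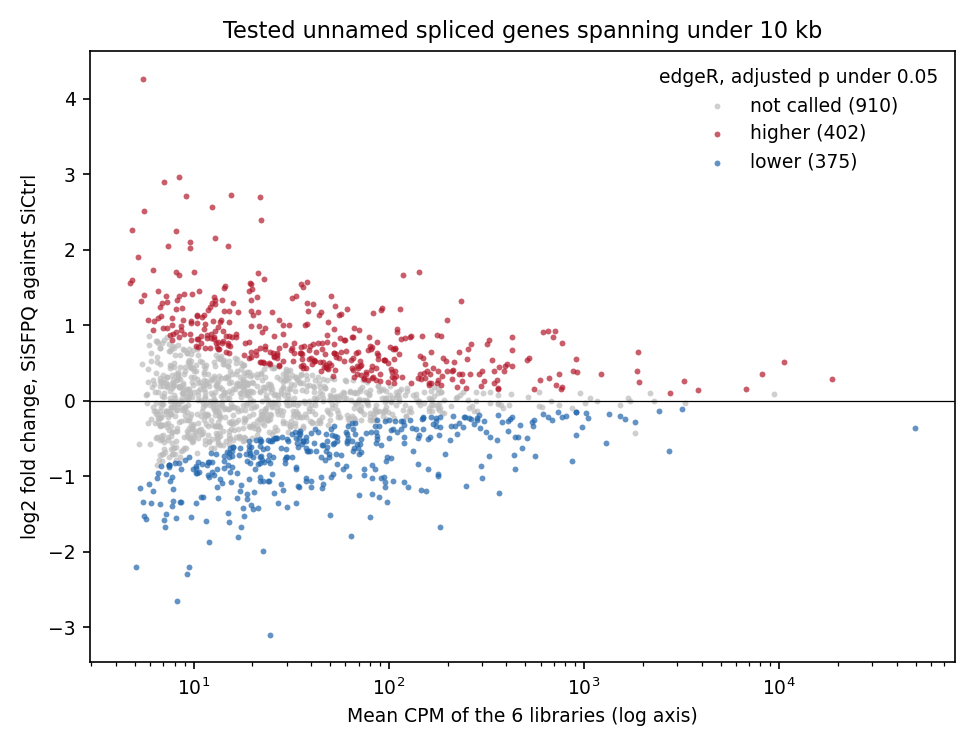
Log2 fold change of SiSFPQ against SiCtrl (vertical axis) by mean CPM of the 6 libraries (horizontal log axis) for the 1687 tested unnamed spliced genes under 10 kb. Red points are the 402 higher genes, blue the 375 lower and grey the 910 not called; the cloud is centred near 0 and narrows towards high CPM, from quartiles of -0.42 and 0.50 in the lowest of 4 groups by CPM to -0.25 and 0.30 in the highest.

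The largest increase was at TRIB3, a pseudokinase gene induced in the integrated stress response. ENSG00000302960 (chromosome 20, 376686 to 381014, minus strand) overlaps TRIB3 exons on the opposite strand. It had 0.701, 0.668 and 0 CPM in the SiCtrl libraries and 12.0, 11.6 and 8.26 CPM in SiSFPQ. These levels stand for 2 reads against 48, a ratio of 22.6 in CPM with a 95% counting interval of 5.94 to 192. The fitted log2 fold change of 4.27 ± 0.62 (SE, adjusted p = 4.57e-11) depends on the prior count. Reads of TRIB3 itself may be among those counted for the antisense gene.

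A pair of neighbours on chromosome 9 were also among the 8 largest increases. ENSG00000303816 (92722219 to 92723102, plus strand) lies antisense over exons of BICD2, which encodes an adaptor of the dynein motor. Its levels were 2.10, 2.67 and 7.35 CPM in SiCtrl and 30.8, 24.5 and 26.0 CPM in SiSFPQ, a log2 fold change of 2.73 ± 0.31 (adjusted p = 3.36e-17). ENSG00000300428 (92670317 to 92674543, plus strand) is divergent from IPPK, the kinase that makes inositol hexakisphosphate, and starts 52 bases from its GENCODE start. It rose from 2.80, 2.67 and 1.47 CPM to 17.3, 15.3 and 15.2 CPM, a log2 fold change of 2.72 ± 0.39 (adjusted p = 6.54e-11). The groups were far apart in both, and the genes lie 47676 bases from each other.

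Of the other large increases, 3 lay apart from coding genes. ENSG00000308838 (chromosome 1, 44039738 to 44043820), 8271 bases from the glycine transporter gene SLC6A9, rose from 1.40, 2.00 and 2.21 CPM to 12.8, 15.9 and 16.5 CPM (log2 fold change 2.97 ± 0.42). It overlaps another unnamed row, ENSG00000230615, which went from 6.01 ± 1.83 to 33.5 ± 2.04 CPM. ENSG00000287609 (chromosome 10, 126393489 to 126398789), 5034 bases from the metalloprotease gene ADAM12, rose from 1.40, 2.00 and 1.47 CPM to 7.50, 13.5 and 16.5 CPM (2.90 ± 0.45). ENSG00000310131 (chromosome X, 47513255 to 47513998), 30309 bases from the zinc-finger gene ZNF41, rose from 10.5, 2.67 and 4.41 CPM to 33.8, 41.0 and 39.4 CPM (2.70 ± 0.26). It overlaps ENSG00000310113, which went from 10.3 ± 0.859 to 44.0 ± 10.5 CPM. Each of the 3 was at least 3 times higher in its lowest SiSFPQ library than in its highest SiCtrl library.

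The 8 were completed by genes over MED11, a Mediator subunit, and over LEFTY2, a secreted antagonist of Nodal. ENSG00000261898, antisense to MED11 (chromosome 17, 4731756 to 4732371), rose from 4.21, 4.01 and 2.21 CPM to 23.3, 17.7 and 22.9 CPM (log2 fold change 2.57 ± 0.34). ENSG00000248322, on the strand of LEFTY2 (chromosome 1, 225936411 to 225937557), rose from 3.51, 1.33 and 0 CPM to 8.25, 11.0 and 9.53 CPM (2.51 ± 0.48). The second rests on few reads, as its level of 0 in 1 SiCtrl library shows.

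The largest decrease was in a gene far from coding genes. ENSG00000297167 (chromosome 20, 53845519 to 53850272, plus strand), 86505 bases from BCAS1, had 54.7, 32.7 and 44.8 CPM in SiCtrl and 3.00, 6.73 and 5.08 CPM in SiSFPQ. Its log2 fold change was -3.10 ± 0.26 (SE, adjusted p = 5.46e-31). ENSG00000303450 (chromosome 16, 55747587 to 55750312), 41395 bases from the noradrenaline transporter gene SLC6A2, fell from 19.6, 17.4 and 9.56 CPM to 4.50, 2.45 and 3.18 CPM (-2.21 ± 0.36). Both had every SiSFPQ library below every SiCtrl library.

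The remaining large decreases lay over coding genes of varied function. ENSG00000305870, antisense over PTPRM, a receptor tyrosine phosphatase gene (chromosome 18, 8312344 to 8316276), fell from 16.1, 13.3 and 13.2 CPM to 3.00, 1.84 and 1.91 CPM (log2 fold change -2.65 ± 0.41). ENSG00000276012, over exons of FGF14 and ITGBL1 (chromosome 13, 101717564 to 101723106), fell from 18.2, 12.7 and 15.4 CPM to 3.00, 3.06 and 3.18 CPM (-2.29 ± 0.37). ENSG00000287727, antisense within an intron of PEX14, a gene of peroxisomal import (chromosome 1, 10612222 to 10616452), fell from 7.71, 8.68 and 8.82 CPM to 1.50, 2.45 and 1.27 CPM (-2.20 ± 0.49). The SiSFPQ libraries of these genes held only a few reads each.

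The other 3 were more abundant in SiSFPQ than those. ENSG00000260545, antisense to CFAP20, a gene of cilia (chromosome 16, 58116885 to 58119353), fell from 36.5, 39.4 and 32.3 CPM to 10.5, 6.12 and 10.8 CPM (log2 fold change -1.99 ± 0.24). ENSG00000267510, antisense to the zinc-finger gene ZNF699 (chromosome 19, 9291515 to 9294482), fell from 16.8, 16.0 and 23.5 CPM to 5.25, 3.06 and 6.99 CPM (-1.87 ± 0.32). ENSG00000286430, antisense to PEMT, which makes phosphatidylcholine (chromosome 17, 17504005 to 17512266), fell from 25.9, 25.4 and 27.9 CPM to 6.75, 6.12 and 9.53 CPM (-1.81 ± 0.27). In bulk RNA, fewer cells that carry a transcript and less of it per cell cannot be told apart.

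**Figure D2:**
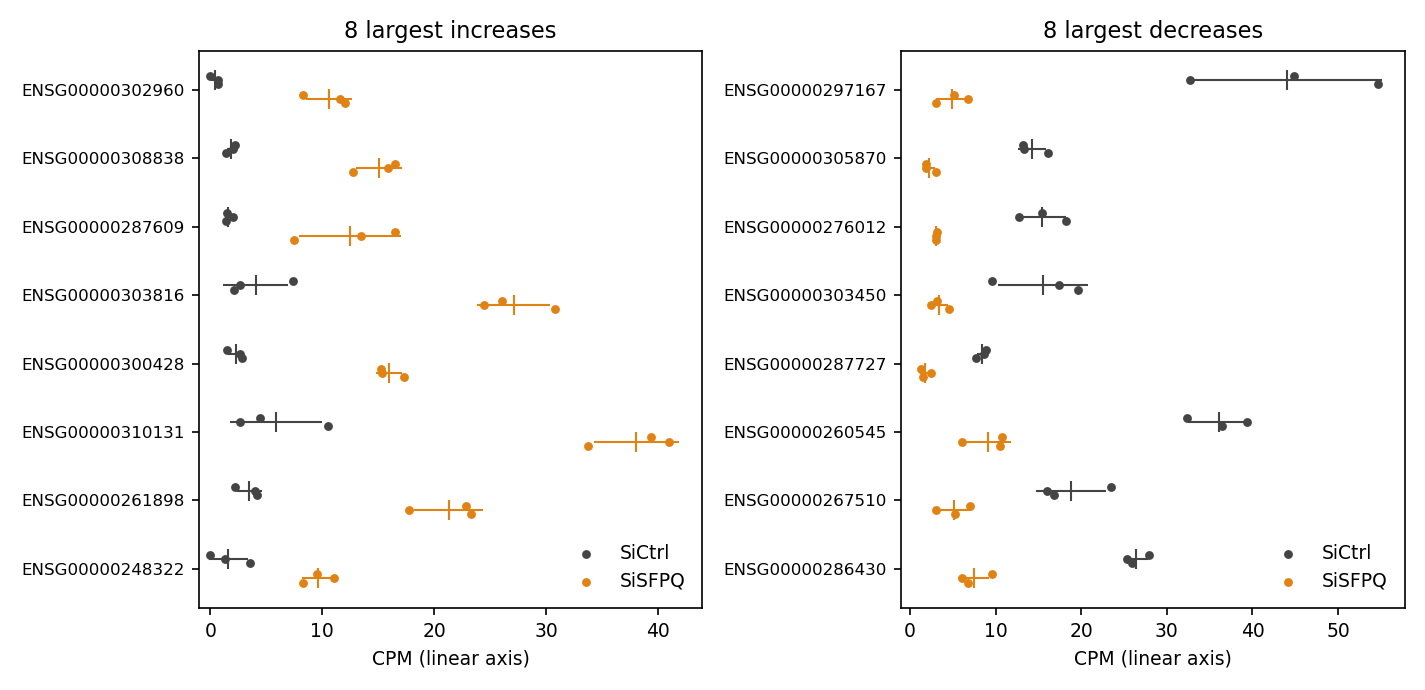
CPM (linear axis) of the 8 largest increases and the 8 largest decreases in each library; points are the 3 SiCtrl and 3 SiSFPQ libraries, ticks and bars the mean and SD. The groups are separate for all 16 genes, by the rule that chose them, and ENSG00000297167 and ENSG00000260545 have the highest SiCtrl levels among the decreases, 32.7 to 54.7 and 32.3 to 39.4 CPM.

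Position relative to coding genes was examined next. Of the 1103 tested genes over coding exons, 263 were higher (23.8%) and 239 lower (21.7%), with a median log2 fold change of -0.009. Within introns 35 of 156 were higher (22.4%) and 33 lower (21.2%), with a median of 0.035. Of genes apart from coding genes, 87 of 388 were higher (22.4%) and 93 lower (24.0%), with a median of 0.008. With plain library totals, higher and lower calls were 300 and 200 over coding exons, 38 and 24 in introns, 17 and 7 divergent, and 102 and 79 apart. Divergent genes had the highest share of increases, 17 of 40 (42.5%), with 10 lower (25.0%) and a median of 0.267; DESeq2 called 7 and 2 of them. Over all divergent genes of the table, 88 of 237 were higher (37.1%) and 26 lower (11.0%), with a median of 0.256. In this table of counts, rows over coding exons had the highest density, a median of 39.9 CPM per kb of exon, against 17.2 in introns, 12.5 for divergent genes and 17.6 apart.

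**Figure D3:**
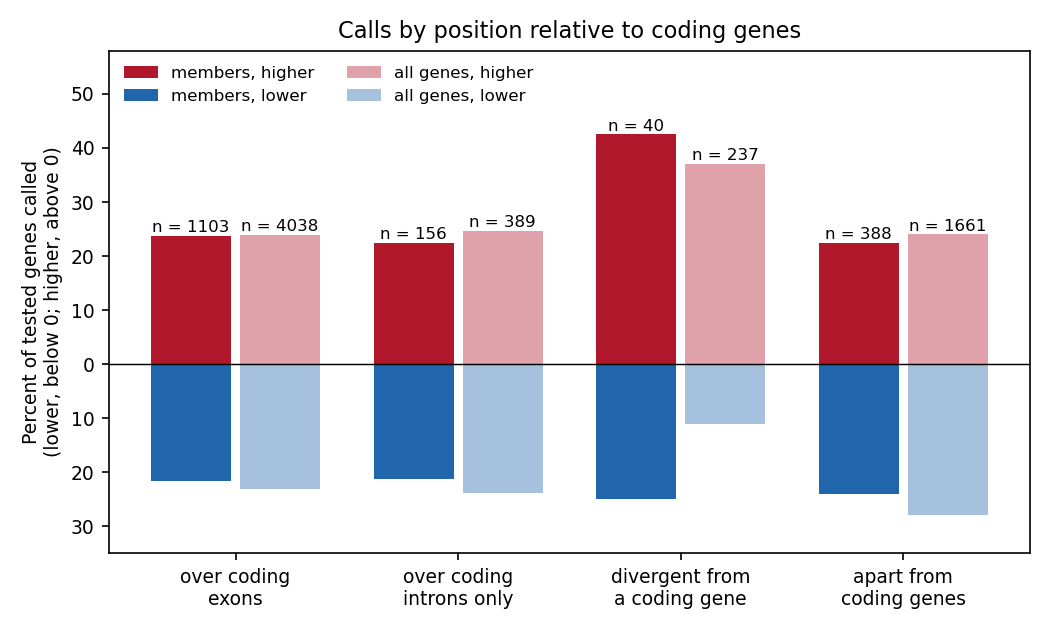
Percent of tested genes called higher (red, upwards) and lower (blue, downwards) in SiSFPQ by position relative to coding genes; full colour shows the unnamed short genes, pale colour all tested genes of the table, with the number tested above each bar. The divergent class has the tallest bars for increases in both, 42.5% of 40 and 37.1% of 237, and the other classes lie between 22.4% and 24.7%.

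Among the divergent genes, the most abundant increase was at EIF1, whose product helps the ribosome select the start codon. ENSG00000309800 (chromosome 17, minus strand), shown above with its promoter stretch, starts 202 bases from EIF1. It had 423, 471 and 463 CPM in SiCtrl and 829, 827 and 908 CPM in SiSFPQ, a log2 fold change of 0.92 ± 0.06 (adjusted p = 3.11e-55). ENSG00000307098, 42 bases from RBM4B, an RNA-binding protein gene, rose from 5.61, 6.01 and 5.88 CPM to 21.8, 23.3 and 27.9 CPM (2.05 ± 0.29). ENSG00000289088, 98 bases from TPPP, a gene for a tubulin-binding protein, rose from 4.21, 6.01 and 5.15 CPM to 15.8, 13.5 and 7.62 CPM (1.23 ± 0.35). In each of the 3 the groups did not overlap, although SiSFPQ library 3 was much lower than its group at TPPP.

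Calls of at least 1 on the log2 scale also stood at KCMF1, MAPK9, LDB1 and CSNK1D. ENSG00000290085, 332 bases from KCMF1, a ubiquitin ligase gene, rose from 21.7, 30.0 and 18.4 CPM to 57.8, 51.4 and 52.7 CPM (1.19 ± 0.17). ENSG00000248367, 66 bases from MAPK9, which encodes the kinase JNK2, rose from 32.2, 28.7 and 22.1 CPM to 56.3, 69.8 and 55.3 CPM (1.13 ± 0.16). ENSG00000308204, 117 bases from LDB1, rose from 8.41, 8.01 and 3.68 CPM to 18.0, 13.5 and 10.8 CPM (1.03 ± 0.32). Against these, ENSG00000287737, 3 bases from the casein kinase gene CSNK1D, fell from 18.9, 30.0 and 23.5 CPM to 10.5, 8.57 and 12.7 CPM (-1.19 ± 0.25). ENSG00000261094, 113 bases from ZBTB26, a zinc-finger gene, fell from 51.9, 49.4 and 35.3 CPM to 28.5, 33.0 and 27.3 CPM (-0.62 ± 0.17). On either strand, GGGCGG is in the printed stretch or the 50 bases after it at IPPK, RBM4B, TPPP and EIF1, which rose, and at ZBTB26, which fell. Several divergent partners, such as FAM72C, TBC1D3I, TBC1D3K, AGAP9 and TUBA3C, belong to families with near-identical copies, and the counts of their divergent genes are uncertain.

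Genes within introns were split by their strand relative to the host gene. Of the 66 tested genes on the host gene's strand, 18 were higher (27.3%) and 10 lower (15.2%), with a median log2 fold change of 0.193, and 13 (19.7%) rose by at least 1 against 3 (4.55%) that fell by as much. Of the 90 on the opposite strand, 17 were higher (18.9%) and 23 lower (25.6%), with a median of -0.166, and 6 rose and 8 fell by at least 1. The other rows of the table in introns did not show this order. There 28 of 126 on the host's strand were higher and 34 lower, with a median of -0.09. On the opposite strand 32 of 101 were higher and 23 lower, with a median of 0.053. Calls of at least 1 there were 7.94% up and 10.3% down on the host's strand, and 10.9% up and 6.93% down on the opposite strand. Over all tested genes of the table they were 6.86% up and 5.38% down. The difference between strands was not tested, and the strands were split after values were seen. Counts on either strand can include unspliced RNA of the host, and its part in the result was not tested.

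The largest increase in an intron was 1 of a pair in ZHX2, a transcription repressor gene, on its strand (chromosome 8). ENSG00000301077 had 8.41, 5.34 and 7.35 CPM in SiCtrl and 42.0, 36.7 and 33.7 CPM in SiSFPQ, a log2 fold change of 2.40 ± 0.25 (adjusted p = 6.37e-20). ENSG00000253372, 18536 bases further on, had 4.21, 4.67 and 5.15 CPM against 21.8, 19.6 and 22.2 CPM (2.16 ± 0.32, adjusted p = 9.82e-11). Every SiSFPQ library was more than 3 times above every SiCtrl library at both.

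HIPK2, a nuclear kinase gene, also held a pair on its strand (chromosome 7). ENSG00000302589 (139741452 to 139744850) had 2.10, 4.67 and 1.47 CPM against 12.0, 13.5 and 15.2 CPM (2.25 ± 0.39). ENSG00000298784 (139707531 to 139709573) had 8.41, 6.01 and 7.35 CPM against 12.8, 16.5 and 21.6 CPM (1.24 ± 0.30). Other increases on the host's strand were in SLC7A5, RAI14 and ADRA1B. ENSG00000305326 in SLC7A5, an amino acid transporter gene, rose from 2.80, 6.68 and 4.41 CPM to 18.0, 13.5 and 15.2 CPM (1.71 ± 0.34). ENSG00000302750 in RAI14 rose from 7.71, 11.3 and 11.0 CPM to 29.3, 32.4 and 26.7 CPM (1.55 ± 0.25). ENSG00000306315 in ADRA1B, an adrenergic receptor gene, rose from 18.2, 20.0 and 16.9 CPM to 55.5, 50.2 and 40.6 CPM (1.39 ± 0.19). The largest decrease of the kind was ENSG00000253357 in TENM2, an adhesion receptor gene of neurons, from 25.9, 24.7 and 30.1 CPM to 10.5, 8.57 and 8.89 CPM (-1.53 ± 0.25). These intronic genes other than ENSG00000305326 were named after their values were seen.

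Unnamed genes were then grouped by the function of the coding gene they overlap or diverge from, with lists of coding genes. Over or beside genes of the integrated stress response, the program that cells run when amino acids or protein folding fail, 7 were tested: 6 were higher, 0 lower, and 1 was not called, with a median log2 fold change of 0.717. Beside TRIB3 and SLC7A5, the higher ones lay over INHBE (ENSG00000287200, 0.72 ± 0.17) and SLC7A11, a cystine transporter gene (ENSG00000295753, 0.72 ± 0.22). They also lay over the serine synthesis gene PHGDH (ENSG00000296692, 0.36 ± 0.07) and XPOT, the exporter of tRNA (ENSG00000277895, 0.35 ± 0.07). A further gene over PHGDH, ENSG00000296672, had a log2 fold change of -0.39 ± 0.25 and was not called. Of all tested genes of the table, 24.5% were higher and 24.0% lower, and both directions together had 48.4% called.

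Over ribosomal protein genes, 9 of 16 were higher (56.2%), 1 lower (6.25%) and 6 not called, with a median of 0.268. Of all tested genes, 24.5% were higher and 24.0% lower. The largest of these was ENSG00000265496 over RPL17, with a log2 fold change of 1.05 ± 0.15, and the called lower one was ENSG00000268093, over SPHK2 and RPL18, at -0.53 ± 0.21. Ribosomal protein genes have many near-identical pseudogenes, so counts over them are uncertain. Of 3 over ribosome biogenesis genes, ENSG00000303490, antisense to the nucleolar RRP1B gene, rose from 81.3, 105 and 92.6 CPM to 153, 174 and 178 CPM (0.86 ± 0.10). ENSG00000293870 over the helicase gene DDX18 went from 267 ± 12.4 to 251 ± 13.0 CPM and was not called. The third, over DDX56, was not called either (ENSG00000300114, -0.09 ± 0.09).

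Over matrix and adhesion genes 6 of 9 were lower, 1 higher and 2 not called, with a median of -0.457; of all tested genes 24.0% were lower and 24.5% higher. ENSG00000273055, antisense to the laminin gene LAMB1, fell from 80.6, 84.1 and 101 CPM to 53.3, 58.1 and 53.3 CPM (-0.68 ± 0.12). ENSG00000295704, antisense to the collagen gene COL3A1, fell from 196, 154 and 145 CPM to 96.0, 128 and 133 CPM (-0.46 ± 0.09). The other decreases were at CDH13 (ENSG00000303284, -1.01 ± 0.30), ITGAV (ENSG00000307901, -0.82 ± 0.23), FBN2 (ENSG00000307925, -0.80 ± 0.24) and AGRN (ENSG00000242590, -0.23 ± 0.05). The increase was antisense in an intron of TIMP2, an inhibitor of matrix proteases (ENSG00000305265, 1.67 ± 0.37).

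At genes of glycolysis and hypoxia, 3 of 5 were lower (60.0%) and 1 higher (20.0%), with a median of -0.364. The shares of all tested genes were 24.0% lower and 24.5% higher. ENSG00000306702, antisense to the phosphofructokinase gene PFKP, fell from 131, 133 and 164 CPM to 92.3, 86.3 and 111 CPM (-0.56 ± 0.10). ENSG00000237768 over P4HA1 fell by 0.56 ± 0.11 on the log2 scale, and ENSG00000283973, on the strand of the glucose transporter gene SLC2A1, rose by 1.05 ± 0.28. The gene over GAPDH is described below with the abundant genes. ENSG00000293728, over ENO2, was not called (-0.06 ± 0.06).

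The p53 target list had 2 higher and 1 lower of 5, where 24.5% of all tested genes were higher and 24.0% lower. ENSG00000310095 and ENSG00000224818, both over PHLDA3, had log2 fold changes of 0.85 ± 0.13 and 0.51 ± 0.22. The lower gene was ENSG00000257181 over MDM2, the ubiquitin ligase gene that limits p53, from 313, 342 and 334 CPM to 266, 261 and 244 CPM (-0.36 ± 0.07). Cell cycle genes had 2 lower and 1 higher of 4, against the same shares of all tested genes. ENSG00000258554 at CDK2 fell from 207, 191 and 218 CPM to 149, 160.3 and 171 CPM (-0.35 ± 0.08). ENSG00000285600 at the replication helicase gene MCM2 fell from 774, 783 and 773 CPM to 739, 655 and 711 CPM (-0.15 ± 0.05, adjusted p = 0.0162), and this call was lost without SiSFPQ library 2 (-0.10), with plain library totals (-0.09) and with DESeq2 (-0.15). The increase was at the transcription factor gene E2F3 (ENSG00000289981, 0.97 ± 0.38).

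Zinc-finger genes, the largest list, had 6 higher and 6 lower of 33 (18.2% each), with a median of 0.058 and 21 not called. These shares were below the 24.5% and 24.0% of all tested genes. ENSG00000260107, antisense to ZNF598, a ubiquitin ligase gene of ribosome quality control, rose from 112, 137 and 123 CPM to 237, 222 and 224 CPM (0.87 ± 0.09). The largest fall was at ZNF699, given above. At interferon and antigen presentation genes, 1 of 5 was higher and 2 were lower. ENSG00000298485 over IFITM2 and IFITM1 fell from 563, 558 and 473 CPM to 377, 392 and 377 CPM (-0.48 ± 0.06), while ENSG00000254910, which overlaps it on IFITM2 introns, rose by 0.70 ± 0.22 from a lower level. ENSG00000295362 at the antiviral gene TRIM22 fell from 38.6, 45.4 and 47.0 CPM to 27.0, 25.7 and 17.1 CPM (-0.91 ± 0.18). Neither of the 2 genes at immediate early genes was called, and of 2 at RNA-binding protein genes 1 was lower. All these lists are small, were chosen with earlier results known, and hold counts that coding mRNA may share.

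**Figure D4:**
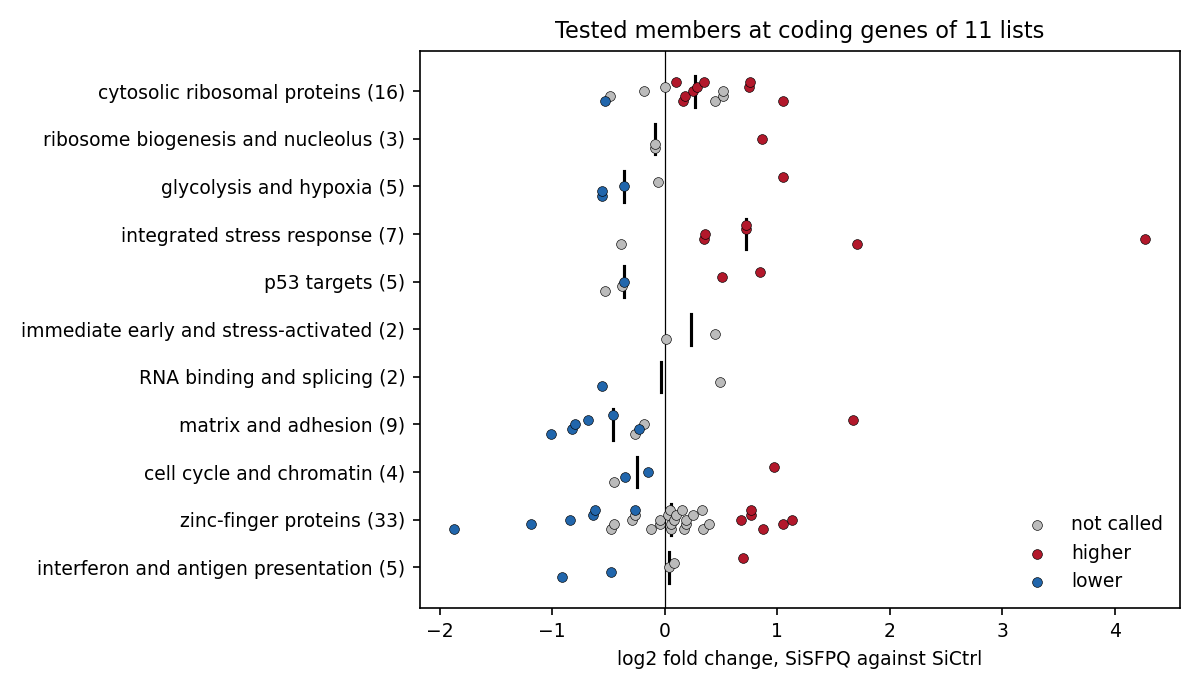
Log2 fold change (horizontal axis) of each tested unnamed gene that overlaps or diverges from a coding gene of 11 lists, with the number of genes in brackets; red is higher, blue lower, grey not called and the black line is the median. Genes at integrated stress response genes lie mostly right of 0 (median 0.717), those at matrix genes mostly left (median -0.457), and those at zinc-finger genes on both sides (median 0.058).

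The unnamed genes named for the highest CPM per kb of exon and given here lay over coding exons, with log2 fold changes between -0.36 and 0.35. ENSG00000269968, a short antisense row over GAPDH, the glycolytic enzyme gene (chromosome 12, 6537794 to 6538370), had 55991, 56427 and 55802 CPM in SiCtrl and 44586, 42791 and 43308 CPM in SiSFPQ. Its log2 fold change was -0.36 ± 0.04 (adjusted p = 3.00e-22). ENSG00000267458 over CALR, a chaperone gene, fell from 2094, 1989 and 1946 CPM to 1637, 1653 and 1666 CPM (-0.28 ± 0.05). ENSG00000265401 over the ubiquitin gene UBB had 3304 ± 117 and 3069 ± 119 CPM (-0.11 ± 0.04, adjusted p = 0.0317); that call was lost under 7 alternatives, among them the removal of SiCtrl library 1 or 2 or of SiSFPQ library 2 or 3 in turn.

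Of the abundant increases, ENSG00000264577 over RPL23A rose from 7222, 7417 and 6929 CPM to 9506, 9258 and 8774 CPM (0.35 ± 0.04). ENSG00000305485 over RPL6 rose from 6348, 6499.6 and 6155 CPM to 7358, 6956 and 6975 CPM (0.16 ± 0.04). ENSG00000304120 over RPL18 had 2661 ± 50.6 and 2855 ± 20.8 CPM (0.10 ± 0.04, adjusted p = 0.0470), a call lost under 12 alternatives, including each removal of a library. Not called were ENSG00000234961 over the vimentin gene VIM (9098 ± 243 and 9674 ± 216 CPM, adjusted p = 0.0535) and ENSG00000258232 over the tubulin gene TUBA1C (3322 ± 83.3 and 3264 ± 141 CPM). ENSG00000234961 was called higher under 4 alternatives: plain library totals, limma-voom, DESeq2 and without SiCtrl library 3. Nor was ENSG00000299101 over the histone gene H3F3A (1061 ± 48.3 and 1086 ± 72.8 CPM). The sum of the 5 unnamed genes with the most counts took 9.56% ± 0.0783 and 9.73% ± 0.165 of the table's counts (exact permutation p = 0.3).

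Where several unnamed genes lay at one coding gene, they did not always move together. Of 80 coding genes with at least 2 tested unnamed genes, 32 had at least 2 called, with all of these higher at 17, all lower at 8, and both directions at 7. No such count was made for all rows of the table. At MAZ, a zinc-finger transcription factor gene, ENSG00000259952 went from 490.2 ± 29.6 to 933 ± 34.6 CPM (0.93 ± 0.06), and ENSG00000280607, which also overlaps the row named MVP-DT, from 308 ± 18.7 to 552 ± 32.4 CPM (0.84 ± 0.06). At GNA11, a G protein gene, ENSG00000267688 went from 55.0 ± 6.99 to 127 ± 4.25 CPM and ENSG00000267139 from 36.8 ± 2.80 to 84.6 ± 12.3 CPM (1.20 ± 0.12 and 1.21 ± 0.14). The members of each pair changed by nearly equal folds at unequal levels.

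Opposite calls stood side by side at LRP8, a receptor gene for reelin. ENSG00000228838, antisense over LRP8 exons, fell from 18.9, 24.7 and 28.7 CPM to 12.8, 11.0 and 9.53 CPM (-1.12 ± 0.25). ENSG00000232762, antisense in an intron of it and 14830 bases away, rose from 4.21, 4.67 and 2.94 CPM to 10.5, 11.0 and 6.99 CPM (1.24 ± 0.39, adjusted p = 0.00489). The second call was lost without SiSFPQ library 2 (1.10) and with DESeq2 (1.26), so the opposite pair rests on that call. At ATP5IF1, an inhibitor gene of the mitochondrial ATP synthase, ENSG00000270605 fell from 210.3, 196 and 205 CPM to 85.5, 101 and 81.9 CPM (-1.18 ± 0.09). ENSG00000290123, 2498 bases away, had 684, 684 and 629 CPM against 709.7, 811 and 791 CPM (0.21 ± 0.06, adjusted p = 4.11e-04). The other 5 coding genes with calls in both directions were IFITM2, RBM19, ANKRD11, CLCN7 and CABIN1. Among 394 neighbouring pairs of tested unnamed genes less than 100000 bases apart, 100 had both genes called, 70 in the same direction and 30 in opposite ones. Pairs were not counted over all rows of the table, so these numbers have no background beside them. The spans of such a pair do not overlap, by the way pairs were taken. Of the tested genes, 474 overlap some other row of the table and may share reads with it. The genes of these pairs were named after their values were seen.

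**Figure D5:**
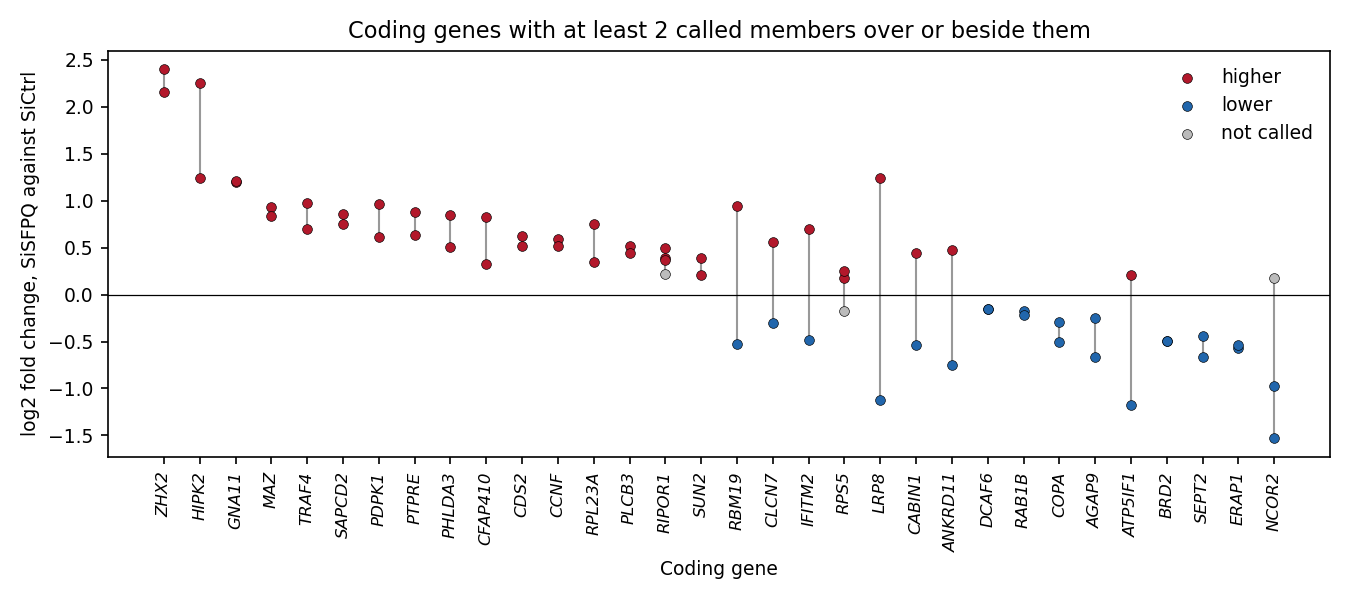
Log2 fold changes (vertical axis) of the unnamed genes at each of the 32 coding genes with at least 2 called ones, joined by a grey line; red is higher, blue lower and grey not called. The called genes of one coding gene lie above 0 at 17, below it at 8 and on both sides at 7, and LRP8 shows the widest split between a higher and a lower gene, 1.24 and -1.12.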

How the data were processed

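The 6 U-2OS libraries were stranded and made from TRIzol-extracted RNA after poly(A) selection, per the labels' protocols. The authors deposited unnormalised read counts for each gene; the aligner, counter, annotation and build are not given in the sources used here. Coordinates are as listed: 3504 of the 3511 identifiers shared with GENCODE 29 (GRCh38) overlapped their position there. Coding neighbours came from that release, by listed span and strand, and promoter windows from RefSeq by the partner's symbol; no unnamed gene matched RefSeq by identifier, and no genome sequence was used.

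All genes of the table were fitted together with edgeR 4.0.16 under R 4.3.3 (its expression filter, TMM factors, robust quasi-likelihood, two-sided tests, Benjamini-Hochberg adjustment over 6325 genes at 0.05), and the fit was tested on simulated data. CPM is relative to all counts of the table. Alternatives were RLE, upper-quartile and plain-total scaling, DESeq2 1.42.0, limma-voom (limma 3.58.1), no filter, a filter of at least 1 CPM in 3 libraries, a replicate block, no genes over coding exons, genes under 5000 bases, 1 gene per overlapping cluster, and each library left out. DESeq2 on edgeR's filtered genes and a log2 fold of at least 1 were added after seeing the data.

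Between libraries of a group, chi-square per degree of freedom was 1.19 to 1.33, so no library's counts were a copy of another's. These values cannot tell separate cultures from repeat libraries of the same RNA. Deviations of same-numbered libraries correlated at -0.0047, 0.00097 and 0.0104, which shows no pairing by number. With spread near counting error a weak pairing could be missed, and no label names one.

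Genes named were, of called genes whose groups were separate and whose mean reached 5 CPM, the 8 largest increases and decreases; the 4 with the highest CPM per kb among higher, lower and uncalled genes; and the 2 smallest adjusted p of each list with at least 3 tested genes. Others are examples, and 3 genes that the rule takes are not reported here. The genes and lists were chosen with earlier results of these data known. Counting intervals cover counting error only.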

Additional observations from a re-analysis of the deposited data

How the results depend on the processing

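The higher and lower calls among the unnamed short genes, 402 and 375, became 141 and 133 of 586 when genes over coding exons were left out of the fit, and 108 and 98 with a log2 fold of at least 1. DESeq2 gave 226 and 206, and 255 higher on edgeR's filtered genes. Genes under 5000 bases gave 247 lower calls. By position, DESeq2 called 157 higher and 134 lower over coding exons, 16 and 17 in introns, 7 and 2 divergent, and 46 and 53 apart; the stricter filter gave 26 higher divergent calls. The cause of the differences between tools was not tested. The median log2 fold change of 0.003 became 0.066 with plain totals, -0.066 without a filter and 0.052 without genes over coding exons, so its sign is not settled. The share of counts reversed to -0.134 percentage points on TMM-scaled CPM. Plain totals called 457 higher and 310 lower. With each library left out in turn, 355 to 380 were higher and 334 to 358 lower. The replicate block called 397 higher and 379 lower, within 1.5 times for every position class. Since no label gives same-numbered libraries a shared source, it is given only here. Of 860 fold changes of 60 named genes under the alternatives, 0 changed sign when called, 24 lost their call and 5 gained one, and 40 gave no value. Those 60 leave out the divergent genes other than that at IPPK. They also leave out list genes such as those at CDH13, ITGAV, TIMP2, INHBE and SLC7A11. Calls of the genes left out were not followed gene by gene. Genes of few reads, the stranded library apparently counted without separating overlaps, and poly(A) selection limit what these counts can show.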

Other observations

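Genes apart from coding genes differed in balance by whether another row of the table overlapped them, a split made after seeing the data and not tested. Of 247 with an overlapping row, 62 were higher and 46 lower, with a median log2 fold change of 0.085. Of 141 without one, 25 were higher (17.7%) and 47 lower (33.3%), with a median of -0.167. Of these 141, 20 (14.2%) fell by at least 1 on the log2 scale. Among all tested genes that lie apart from coding genes, 24.0% were higher, 27.9% lower and 6.92% lower by at least 1. Over all tested genes of the table these shares were 24.5%, 24.0% and 5.38%. The 47 include ENSG00000297167, the largest decrease.

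Some abundant genes apart from coding genes follow a named row that they overlap. ENSG00000286161 (chromosome 4, 52712713 to 52722377, minus strand) lies across DANCR on the other strand and rose from 423, 447 and 417 CPM to 811, 799 and 805 CPM (0.91 ± 0.06), beside 0.93 for DANCR. An unnamed row overlapping it, ENSG00000293643, held 5510 counts in all, against 5494 for ENSG00000286161. ENSG00000308907, across ZFAS1, rose from 1088, 1124 and 1025 CPM to 1397, 1386 and 1335 CPM (0.35 ± 0.05), beside 0.24 for ZFAS1. ENSG00000234160 (chromosome 9, 37509150 to 37510299), 593 bases from FBXO10, rose from 73.6, 64.7 and 67.6 CPM to 155, 156 and 169.6 CPM (1.22 ± 0.11). ENSG00000290018 (chromosome 2, 174719821 to 174720853) was abundant, with 1753, 1654 and 1568 CPM against 1625, 1757 and 1747 CPM, and was not called. It did not follow the row that overlaps it, ENSG00000236449, which fell from 39.4 ± 5.76 to 24.3 ± 3.71 CPM (log2 fold change -0.69).

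Of 186 pairings of a tested unnamed gene and a tested row overlapping it on the other strand, 6 agreed within 5% in total counts. ENSG00000297076 and ENSG00000297093, in DCAF6, held 8001 and 7991 counts. Both are unnamed short genes, so their pair is among the 6 from each side.

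ENSG00000282885 (chromosome 14, 49860314 to 49868183) varied widely between libraries of one group for an abundant gene, with 3881, 2492 and 2546 counts in SiCtrl and 2692, 2130 and 2094 counts in SiSFPQ. Its log2 fold change was -0.43 ± 0.30 and it was not called. ENSG00000298107, antisense over MACROD1, rose from 0, 3 and 4 counts to 9, 16 and 12 counts (2.26 ± 0.51), and fell below the mean of 5 CPM used for naming the largest changes.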
